A study of Mus musculus with 7 samples.

Results

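Cell cycle genes (36) were followed in the abdominal aorta of mice given angiotensin II (Ang II), a peptide that raises blood pressure and brings on aortic aneurysm in mice with high plasma cholesterol. They were taken as the rows of the gene count table whose symbol was on a list of proliferation genes. All 36 were found among the 21878 genes of the table, and all 36 were among the 14609 genes with enough reads to be tested. By function, 19 act in mitosis or are classical mitotic markers, 12 act in DNA replication (S phase), 3 are G1 cyclins and 2 are inhibitors of cyclin-dependent kinases (CDKs). The RNA came from male C57BL/6 mice, 8 weeks of age, exposed to Ang II for at most 28 days. Libraries ApoE 1 to ApoE 3 carried the label ApoE-/- (loss of apolipoprotein E, which raises cholesterol). Libraries DKO 1 to DKO 4 carried the label ApoE-/-Nur77-/-, the double knockout, which also lacks the nuclear receptor Nur77 (gene Nr4a1). By label, both groups shared the ApoE deletion and the Ang II exposure, and no library without Ang II was analysed here. The comparison asks what loss of Nur77 changes on the ApoE-/- background. Whether each library is a separate mouse is not stated, and p-values measure only the spread between these libraries, which may be technical.

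A dividing cell passes through G1, copies its DNA in S phase and separates the copies in mitosis. D- and E-type cyclins with their CDKs release E2F transcription factors from the retinoblastoma proteins, and E2F switches on replication genes. Mitotic genes are switched on later, largely through promoter elements called CHR and CCAAT, and stay repressed in resting cells. In the normal adult aorta very few cells divide, whereas in aneurysm smooth muscle cells, fibroblasts and infiltrating leukocytes can all proliferate.

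Library totals were 19295287 to 21727192 counts. A difference in depth between the groups was not shown (exact two-sided permutation test over all 35 splits, p = 0.886). Levels below are CPM, counts relative to TMM-scaled library sizes, and 3 counts, the most that a count of 0 allows, corresponded to 0.133 to 0.164 CPM (counting error only). The targeted genes did not separate the groups the way the labels would have it. Nr4a1 was read at 193, 56.4 and 111 CPM in ApoE 1 to 3 and at 46.2, 57.0, 90.1 and 92.7 CPM in DKO 1 to 4 (log2 fold change -0.75, edgeR adjusted p = 0.360). Apoe, deleted in both groups by label, averaged 222 ± 34.4 CPM (SD, n = 3) over ApoE 1 to 3 and 28.7 ± 7.52 CPM (SD, n = 4) over DKO 1 to 4 (log2 fold change -2.95, edgeR adjusted p = 0.0227). Every direction given here is therefore between libraries as labelled. Reads of the smooth muscle genes Myh11, Acta2 and Tagln were abundant in all 7 libraries, and no marker of the 12 cell type lists was at 0 in every library.

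Parts of the promoters of 5 members are shown for the elements, named above, whose shares differ between the mitotic and the S-phase members. Mki67, Cdk1 and Cdc20 are a mitotic member with a large difference between groups, the central mitotic kinase and the mitotic member with the smallest difference. Mcm5 and Mcm6 are helicase subunits with a large and a small difference among the S-phase members. They were chosen after their values were seen. Each stretch is RefSeq sequence (GRCm38.p6) just upstream of the gene, 5′ to 3′ on the strand of the gene, and capitals mark every match to one of the searched words on either strand: Mki67 at chr7:135716451-135716629 (minus strand), Cdk1 at chr10:69352939-69353112 (minus), Cdc20 at chr4:118437353-118437543 (minus), Mcm5 at chr8:75109259-75109467 (plus) and Mcm6 at chr1:128359706-128359905 (minus).
Mki67: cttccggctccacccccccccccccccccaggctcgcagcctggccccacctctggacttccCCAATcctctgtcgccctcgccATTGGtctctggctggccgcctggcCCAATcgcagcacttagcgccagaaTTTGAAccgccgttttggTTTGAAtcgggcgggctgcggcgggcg
Cdk1: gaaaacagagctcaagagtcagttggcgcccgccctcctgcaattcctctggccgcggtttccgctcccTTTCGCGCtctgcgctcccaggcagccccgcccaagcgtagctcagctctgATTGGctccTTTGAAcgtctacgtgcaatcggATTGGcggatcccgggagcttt
Cdc20: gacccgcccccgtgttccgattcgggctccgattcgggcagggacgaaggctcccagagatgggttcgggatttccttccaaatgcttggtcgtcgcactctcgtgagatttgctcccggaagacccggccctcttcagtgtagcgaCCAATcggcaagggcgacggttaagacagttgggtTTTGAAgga
Mcm5: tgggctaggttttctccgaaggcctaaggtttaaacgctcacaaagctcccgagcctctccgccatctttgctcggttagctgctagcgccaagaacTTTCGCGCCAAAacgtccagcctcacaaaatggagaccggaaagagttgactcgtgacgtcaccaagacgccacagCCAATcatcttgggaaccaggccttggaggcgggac
Mcm6: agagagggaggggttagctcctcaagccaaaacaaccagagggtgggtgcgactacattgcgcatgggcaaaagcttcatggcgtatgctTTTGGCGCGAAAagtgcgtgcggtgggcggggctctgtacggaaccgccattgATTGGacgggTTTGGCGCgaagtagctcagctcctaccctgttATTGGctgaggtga
The words were TTTGAA or TTCGAA for CHR, CCAAT for the CCAAT box, and TTTCCCGC, TTTGGCGC, TTTCGCGC or TTTGCCGC for E2F, each with its reverse complement (so ATTGG is a CCAAT box on the other strand). A capital run longer than a word, as in Mcm5 and Mcm6, is a forward and a reverse E2F match that overlap. The stretches are shorter than the windows described next, so some matches are not shown. In the whole windows Cdk1 held 2 CHR and 3 CCAAT words, Cdc20 held 2 CCAAT words and Mcm5 held 3.

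Windows of 300 bases, 250 before the start and 50 after it, were read from RefSeq for 29 of the 36 members and for 11561 of the 14609 tested genes. The members not matched were Ccna2, Aurkb, Tpx2, Mcm4, Ccnd1, Ccne2 and Cdkn1c. The start used lay at the RefSeq bound of the gene in 18 of 32 member windows, and the words found depend on the start used. CHR was found in 13 of 16 mitotic members (81.2%), against 16.6% of all tested genes with a window. CCAAT was found in 15 of the 16 (93.8%), against 42.5%, and both together in 13, against 8.2%. Only 1 mitotic member, Cdk1, held an E2F word (6.2%, against 4.3% of all genes). Birc5, Cenpe and Ccnb1 had no CHR in this window, and Birc5 had none of the words. Birc5 and Cenpe were among the mitotic members with the smallest p in the group comparison, and Ccnb1 was not. Among 11 S-phase members E2F was found in 6 (54.5%), CCAAT in 8 (72.7%) and CHR in 2 (18.2%). The 6 were Mcm3, Mcm5, Mcm6, Mcm7, Cdc6 and Cdt1. Lists of other genes of the same functions had lower shares, with CHR in 68.6% of 51 other mitotic genes and E2F in 41.5% of 41 other S-phase genes. In 1 member window, matches of 2 different elements (CHR, CCAAT or E2F) overlapped. These shares are descriptions of letters and show no binding.

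**Figure D1:**
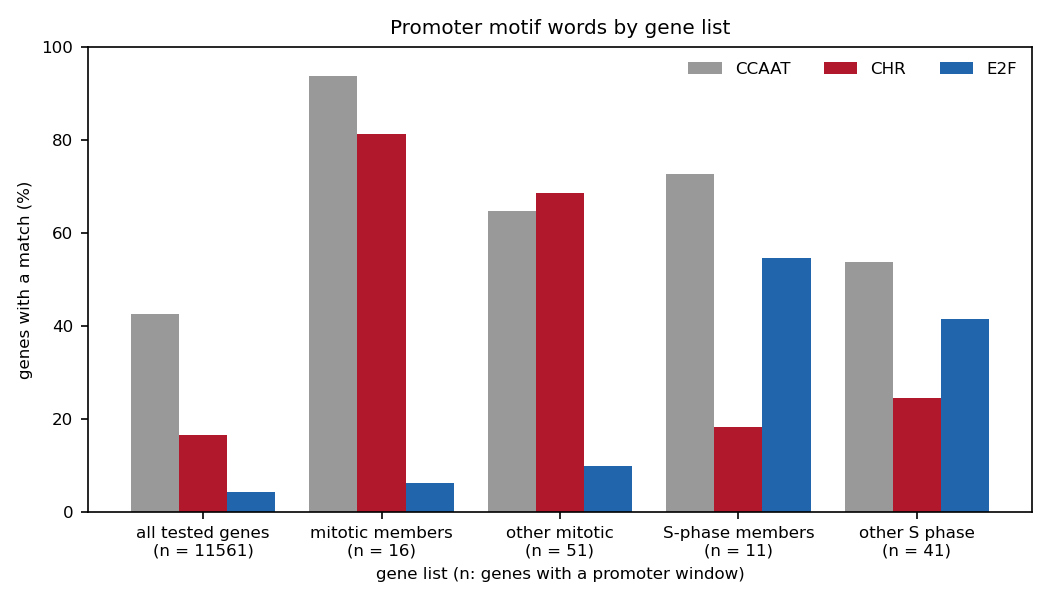
Share of genes (%, bars) whose RefSeq promoter window of 300 bases held a CCAAT, CHR or E2F word, for all tested genes and for 4 gene lists, with the number of genes under each list. The mitotic lists stand out for CHR (81.2% and 68.6% against 16.6%) and the S-phase lists for E2F (54.5% and 41.5% against 4.3%).

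Over the whole table, genes with these words had medians near that of all genes. The median log2 fold change, double knockout against ApoE-/-, was 0.02 over the 944 tested genes with both CHR and CCAAT, and -0.01 over the 896 of these outside the cell cycle lists. It was 0.02 over the 502 genes with an E2F word and -0.03 over the 5454 genes with none of the words.

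Every mitotic member had a higher fitted level in the double knockout libraries, but none passed the test (edgeR quasi-likelihood, Benjamini-Hochberg adjustment over all 14609 genes, threshold 0.05). The median log2 fold change of the 19 was 0.85 (range 0.30 to 1.29), against a median of -0.02 over all tested genes, of which 47.4% were above 0. Their adjusted p ran from 0.153 to 0.559. Of all genes tested, 0% were called higher and 0.0274% (4 genes) lower. At an unadjusted p under 0.05, 13 of the 19 were higher, where 8% of all genes were higher and 11.8% lower. In 9 of the 19 the lowest double knockout library lay above the highest ApoE-/- library, which held for 7.08% of all genes. The other tools called more: 10 of the 19 with DESeq2, which called 3.35% of all genes higher, and 11 with limma voom with quality weights, which called 6.17% higher. In bulk tissue, more cells of a type and more RNA per cell cannot be told apart.

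**Figure D2:**
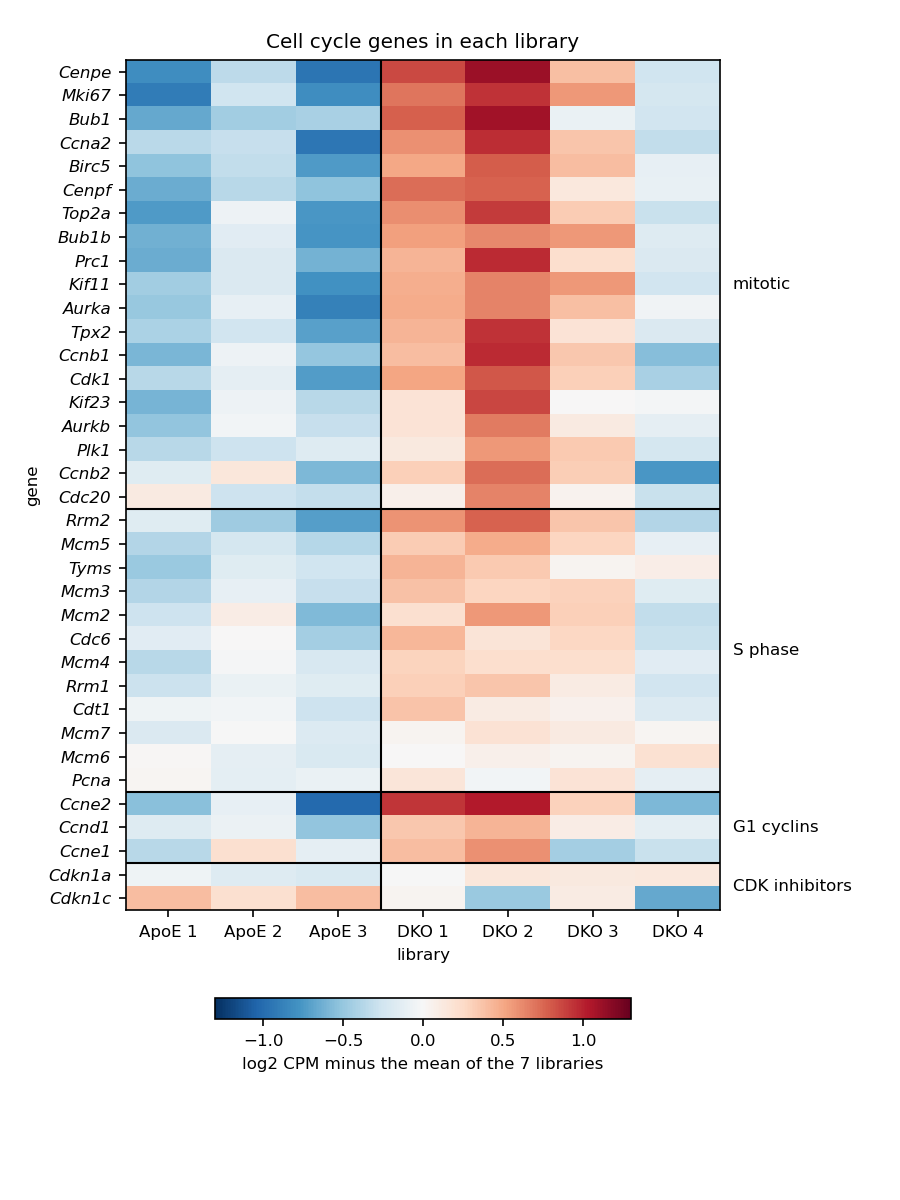
Level of each of the 36 genes (rows, by function and then by fold change) in each of the 7 libraries (columns), as log2 CPM minus the mean of the gene over the 7 libraries. DKO 2 is the darkest red in the mitotic block, where it was highest for 19 of 19 genes, and DKO 4 is close to the ApoE-/- libraries.

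Mki67 and Top2a are the markers most often used to count cycling cells. Mki67 (chromosome 7, 135689784 to 135716450, GRCm38.p6), which coats mitotic chromosomes, was read at 19.5, 30.6 and 20.9 CPM in ApoE 1 to 3 and at 59.6, 70.4, 54.3 and 31.3 CPM in DKO 1 to 4. The groups did not overlap, but DKO 4 exceeded ApoE 2 by little and was far below the other double knockout libraries. The means were 23.7 ± 6.04 CPM (SD, n = 3) and 53.9 ± 16.5 CPM (SD, n = 4), a log2 fold change of 1.19 (edgeR SE 0.29, adjusted p = 0.153). Top2a (chromosome 11, 98992947 to 99024199), the topoisomerase that untangles sister DNA, was read at 15.025, 24.0 and 14.9 CPM against 38.3, 47.3, 31.6 and 20.5 CPM. Here the groups overlapped, since DKO 4 lay below ApoE 2. Its log2 fold change was 0.94 (edgeR SE 0.31, adjusted p = 0.177).

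The kinetochore and checkpoint genes had log2 fold changes of 0.91 to 1.29. Cenpe (chromosome 3, 135212563 to 135273540), a kinesin that carries chromosomes to the spindle equator, had the largest of all 36, at 1.29 on the log2 scale (edgeR SE 0.35, adjusted p = 0.158). Its levels were 3.57, 4.92 and 3.22 CPM in the ApoE-/- libraries and 11.3, 13.5, 8.17 and 5.22 CPM in the double knockout libraries. No double knockout library was as low as any ApoE-/- library, with DKO 4 again nearest to ApoE 2. Cenpf (chromosome 1, 189640606 to 189688107), a large protein of the outer kinetochore, was read at 3.97, 4.83 and 4.31 CPM against 10.2, 10.6, 6.84 and 5.83 CPM. Its log2 fold change was 0.94 (edgeR SE 0.26, adjusted p = 0.158), and the ApoE-/- libraries lay close together (SD 0.433 CPM). Bub1 and Bub1b, kinases of the checkpoint that waits for chromosome attachment, had log2 fold changes of 1.00 (SE 0.38) and 0.91 (SE 0.26). Bub1 did not overlap between groups, and Bub1b did because DKO 4 (6.54 CPM) fell just under ApoE 2 (6.62 CPM).

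The chromosomal passenger and spindle genes ranged from 0.49 to 0.94. Birc5 (chromosome 11, 117849237 to 117855743) encodes survivin, which anchors Aurora B at the centromere, and was read at 3.92, 4.50 and 3.38 CPM against 8.00, 9.70, 7.41 and 5.22 CPM. The groups did not overlap (log2 fold change 0.94, edgeR SE 0.25, adjusted p = 0.158). Aurkb, the kinase that survivin anchors, had a smaller log2 fold change of 0.51 (SE 0.25), with overlapping groups. Aurka, the centrosome kinase, was at 0.85 (SE 0.28) and its activator Tpx2 at 0.84 (SE 0.27), both without overlap. Kif11, the motor that pushes spindle poles apart, was at 0.85 (SE 0.26). Prc1 and Kif23, which build the midzone where the cell divides, were at 0.89 (SE 0.28) and 0.63 (SE 0.28), and neither overlapped. Plk1, a kinase of mitotic entry and exit, was at 0.49 (SE 0.22) and overlapped.

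The mitotic cyclins and their partners had fold changes from 0.30 to 0.97 on the log2 scale. Ccnb1 (chromosome 13, 100778739 to 100786486), the cyclin that drives entry into mitosis, was read at 3.37, 4.87 and 3.6 CPM against 6.75, 9.99, 6.53 and 3.48 CPM. DKO 4 lay inside the ApoE-/- range, and DKO 2 was the highest of all. The log2 fold change was 0.76 (edgeR SE 0.36, adjusted p = 0.289). Cdk1, its kinase, was at 0.75 (SE 0.30) and Ccna2, the cyclin of S phase and G2, at 0.97 (SE 0.31). Ccnb2 was at 0.41 (SE 0.36), and it was the only mitotic member whose lowest value was in a double knockout library (DKO 4, 2.91 CPM). Cdc20 (chromosome 4, 118432901 to 118437343), which activates the ubiquitin ligase that ends mitosis, was nearest to no difference, at 7.49, 5.75 and 5.56 CPM against 7.23, 10.8, 7.15 and 5.68 CPM. For this gene 3 of the 4 double knockout libraries fell within the ApoE-/- range (log2 fold change 0.30, edgeR SE 0.25, adjusted p = 0.536).

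The S-phase members also had log2 fold changes above 0 throughout. Their median log2 fold change was 0.35 (range 0.11 to 0.82), and none of the 12 passed the edgeR test (adjusted p from 0.157 to 0.552, with 0% of all genes called higher). At an unadjusted p under 0.05, 5 of the 12 were higher (8% of all genes), and in 3 (Mcm5, Mcm7 and Tyms) the groups did not overlap, with the double knockout higher (7.08% of all genes). DESeq2 called 1 higher (Mcm5, against 3.35% of all genes), and limma voom called 3 (Mcm3, Mcm4 and Mcm5, against 6.17%). Whether the mitotic and S-phase medians differ was not tested.

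The Mcm2 to Mcm7 proteins form the ring-shaped helicase that opens DNA at replication origins and are present in it in equal numbers. Their log2 fold changes ran from 0.17 to 0.59, several within an SE of each other, and differences between subunits were not tested. Mcm5 (chromosome 8, 75109468 to 75128439) was read at 11.7, 13.0 and 11.8 CPM against 19.2, 21.3, 18.4 and 14.1 CPM, a log2 fold change of 0.59 (edgeR SE 0.15, adjusted p = 0.157). All double knockout libraries lay above all ApoE-/- libraries. Mcm3 (chromosome 1, 20802966 to 20820312) was read at 18.0, 21.7 and 19.04 CPM against 30.5, 28.5, 28.9 and 21.1 CPM, and only DKO 4 reached into the ApoE-/- range. Its log2 fold change was 0.48 (edgeR SE 0.15, adjusted p = 0.169). The other subunits were at 0.45 (Mcm2, SE 0.24), 0.35 (Mcm4, SE 0.14), 0.21 (Mcm7, SE 0.09) and 0.17 (Mcm6, SE 0.09). Mcm6 was also the most abundant of the 6 (mean 11.1 FPKM, a level per transcript length, over the 7 libraries, against 3.53 to 5.79 FPKM for the other 5) and the only S-phase member highest in DKO 4 (79.4 CPM). Its promoter window, printed in part above, held 3 E2F matches and that of Mcm5 held 2.

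Rrm1, Rrm2 and Tyms supply DNA building blocks, and none passed the test. Rrm2 (chromosome 12, 24708254 to 24714146), the subunit of ribonucleotide reductase made mainly in S phase, was read at 7.98, 6.44 and 5.40 CPM against 13.4, 15.1, 11.4 and 6.80 CPM. DKO 4 lay inside the ApoE-/- range and the other 3 lay above it (log2 fold change 0.82, edgeR SE 0.29, adjusted p = 0.195). Rrm1, the subunit present through the whole cycle, was at 0.32 (SE 0.15). Tyms (chromosome 5, 30038546 to 30073645), thymidylate synthase, was read at 6.89, 8.64 and 8.07 CPM against 13.1, 12.2, 9.86 and 10.2 CPM. The groups did not overlap, and here DKO 4 was not the lowest double knockout library (log2 fold change 0.53, edgeR SE 0.16, adjusted p = 0.169).

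Cdc6 and Cdt1, which load the helicase in replication licensing, were at 0.35 (SE 0.25) and 0.22 (SE 0.16) on the log2 scale. Pcna (chromosome 2, 132249286 to 132253180), the clamp that tethers DNA polymerase and also serves DNA repair, was the S-phase member nearest to 0, at 58.9, 53.1 and 54.5 CPM against 64.7, 56.7, 65.4 and 53.4 CPM. Only DKO 1 and DKO 3 exceeded all ApoE-/- libraries (log2 fold change 0.11, edgeR SE 0.10, adjusted p = 0.552). Pcna, the most used S-phase marker, had by far the highest level of the group, at 42.1 FPKM on average, where the other 11 ranged from 0.525 (Cdc6) to 11.1 (Mcm6). Mitotic members ranged from 0.406 (Cenpf) to 3.54 FPKM (Ccna2).

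**Figure D3:**
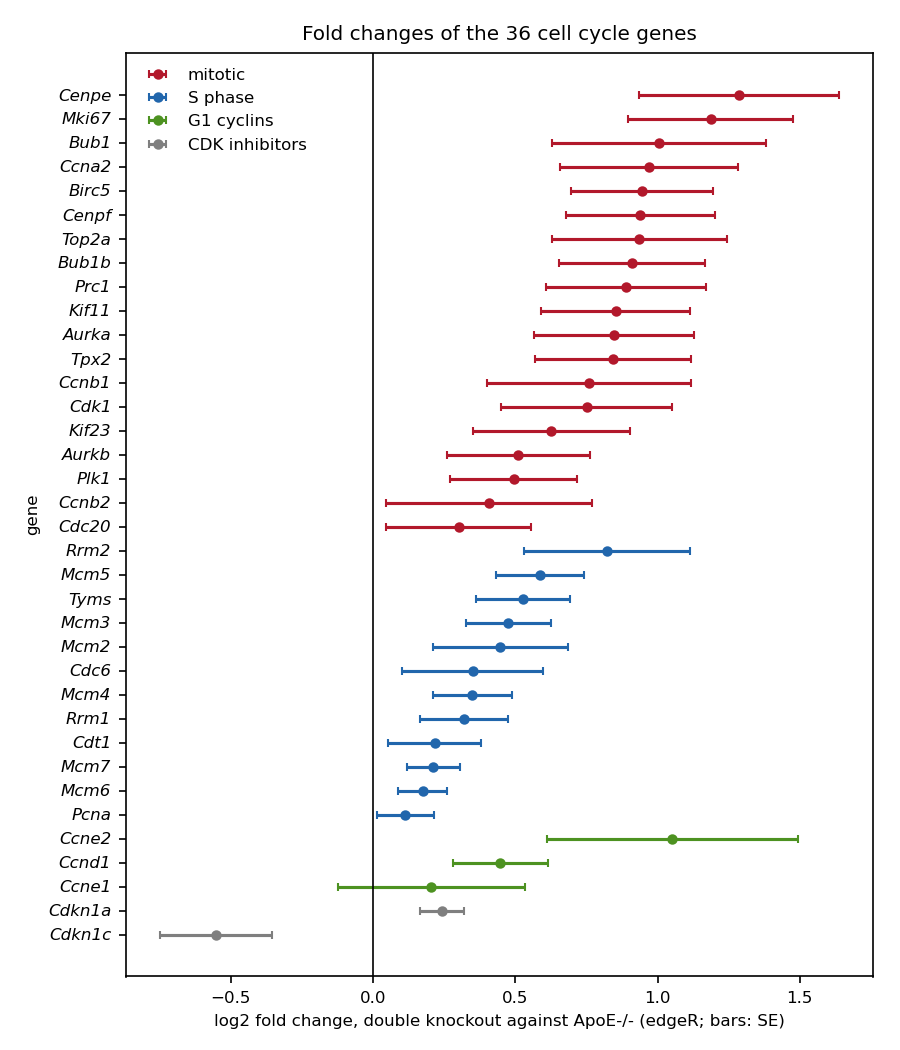
log2 fold change of each gene, double knockout against ApoE-/- libraries, from the edgeR fit (points; bars are the SE), by function. Mitotic points lie between 0.30 and 1.29 and S-phase points between 0.11 and 0.82, and Cdkn1c is the only gene below 0.

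The G1 cyclins, which act before S phase and mitosis, had log2 fold changes from 0.20 to 1.05, and none passed the test. Ccnd1 (chromosome 7, 144929931 to 144939831), cyclin D1, which responds to growth factors, was read at 70.9, 76.0 and 56.0 CPM against 102, 108, 85.4 and 73.2 CPM. DKO 4 was inside the ApoE-/- range and the other 3 were above it (log2 fold change 0.45, edgeR SE 0.17, adjusted p = 0.209). Ccne2 (chromosome 4, 11190433 to 11204779), cyclin E2, was read at 1.74, 2.34 and 1.25 CPM against 4.84, 5.16, 3.11 and 1.69 CPM. It had the third largest log2 fold change of the 36 and the largest SE (1.05, edgeR SE 0.44, adjusted p = 0.246), with DKO 4 again inside the ApoE-/- range. Ccne1 (chromosome 7, 38097984 to 38107490), cyclin E1, was read at 2.53, 3.77 and 3.0 CPM against 4.31, 4.92, 2.40 and 2.66 CPM. Its libraries were interleaved, with DKO 3 the lowest of all 7 (log2 fold change 0.20, edgeR SE 0.33, adjusted p = 0.771).

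The CDK inhibitors, which hold cells out of the cycle, pointed in opposite directions. Cdkn1a (chromosome 17, 29090979 to 29100722) encodes p21, a target of p53, and was read at 55.6, 51.7 and 50.7 CPM against 57.9, 64.1, 63.5 and 63.8 CPM. All double knockout libraries lay above all ApoE-/- libraries, by a small amount (log2 fold change 0.24, edgeR SE 0.08, adjusted p = 0.170). DESeq2 called it (adjusted p = 0.0178), and no other setting did. Cdkn1c (chromosome 7, 143458339 to 143461059) encodes p57, an imprinted inhibitor linked to quiescence, and was read at 46.2, 40.5 and 46.4 CPM against 35.9, 25.2, 37.7 and 22.2 CPM. All double knockout libraries lay below all ApoE-/- libraries, an arrangement seen in 9.24% of all genes. Its log2 fold change was -0.55 (edgeR SE 0.20, adjusted p = 0.196), and DKO 4, the double knockout library with the lowest mitotic level, also had the lowest Cdkn1c. DKO 2, with the highest mitotic level, had the next lowest.

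Averaged over the 19 mitotic members, the mean log2 CPM was 2.44, 2.76 and 2.33 in ApoE 1 to 3 and 3.41, 3.76, 3.23 and 2.70 in DKO 1 to 4. The S-phase mean was 3.99, 4.11 and 3.90 against 4.51, 4.50, 4.40 and 4.08. DKO 4 lay below ApoE 2 on both, and the other 3 double knockout libraries lay above every ApoE-/- library on both. DKO 2 held the highest value of all 19 mitotic members, whereas the highest S-phase value was in DKO 1 for 5 genes, in DKO 2 for 5 and in DKO 3 and DKO 4 for 1 each. DKO 4 exceeded every ApoE-/- library for 9 of the 19 mitotic and 4 of the 12 S-phase members, against at least 18 and 11 in each other double knockout library. The share of all tested genes above every ApoE-/- library was not computed for any single library. The mitotic mean minus the S-phase mean was -1.55, -1.35 and -1.57 in ApoE 1 to 3 and -1.10, -0.74, -1.17 and -1.38 in DKO 1 to 4, so DKO 2 was the library with the most mitotic transcript for its S-phase transcript.

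Markers of several cell types differed between the same libraries. The summed level of 10 smooth muscle markers was 25270, 16410 and 21430 CPM in ApoE 1 to 3 and 8716, 14350, 15630 and 31270 CPM in DKO 1 to 4. DKO 4, low in mitotic genes, was the highest, and ApoE 2, the highest ApoE-/- library for mitotic genes, was the lowest of its group. The lowest of all was DKO 1, not DKO 2, which had the highest mitotic level. Of the 10, 8 had a log2 fold change below 0. Macrophage markers summed to 2458 to 3639 CPM in the ApoE-/- libraries and 2707 to 5309 CPM in the double knockout libraries, with all 10 above 0. Their highest library was DKO 3, not DKO 2. The sum of 10 fibroblast markers was 24440 to 24590 CPM against 19570 to 35140 CPM, with 5 above and 5 below 0, and its highest library was DKO 2 and its lowest DKO 4. Their mean log2 CPM was lower in every double knockout library (9.806, 9.797 and 9.817 against 9.664, 9.575, 9.597 and 9.374). For 4 of the 10 the groups did not overlap with the double knockout lower (9.24% of all genes), and for 0 with it higher (7.08% of all genes).

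Markers of other leukocytes had lower sums than those of macrophages. Their median log2 fold changes were 0.78 (T and NK cell), 0.63 (B cell) and 1.25 (neutrophil). None of these genes passed the edgeR test (0% of all genes called higher). T and NK cell markers summed to 13.9 to 35.95 CPM against 29.0 to 65.3 CPM (8 of 8 tested above 0), B cell markers to 11.3 to 123 CPM against 38.4 to 157 CPM (10 of 10), and neutrophil markers to 27.4 to 77.0 CPM against 42.3 to 218 CPM (9 of 9). Adipocyte markers had lower sums in every double knockout library: white adipocyte markers summed to 9084 to 12560 CPM against 4349 to 6927 CPM (10 of 10 below 0), and brown adipocyte markers to 831 to 2262 CPM against 344 to 721 CPM (9 of 9 tested). Median log2 fold changes were -1.05 for white and -1.43 for brown adipocyte markers, and none passed the edgeR test (0.0274% of all genes called lower). The groups did not overlap, with the double knockout lower, for 8 of the 10 and 5 of the 9 (9.24% of all genes). Endothelial markers summed to 1835 to 2209 CPM against 1649 to 2126 CPM (7 of 10 below 0). Erythroid markers summed to 49.6 to 187 CPM against 64.2 to 284 CPM (5 of 7 tested above 0), and lymph node stroma markers to 1444 to 1644 CPM against 1153 to 1809 CPM (6 of 8 tested above 0). Cardiomyocyte markers stood at 433 and 1480 CPM in ApoE 2 and ApoE 3 and at 49.1 to 106 CPM in the other 5 libraries. With ApoE 2 and ApoE 3 left out together, an alternative chosen after seeing the data, the median log2 fold change was 0.90 for the mitotic and 0.46 for the S-phase members. The part of the marker lists in the differences of the cell cycle genes was not tested.

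**Figure D4:**
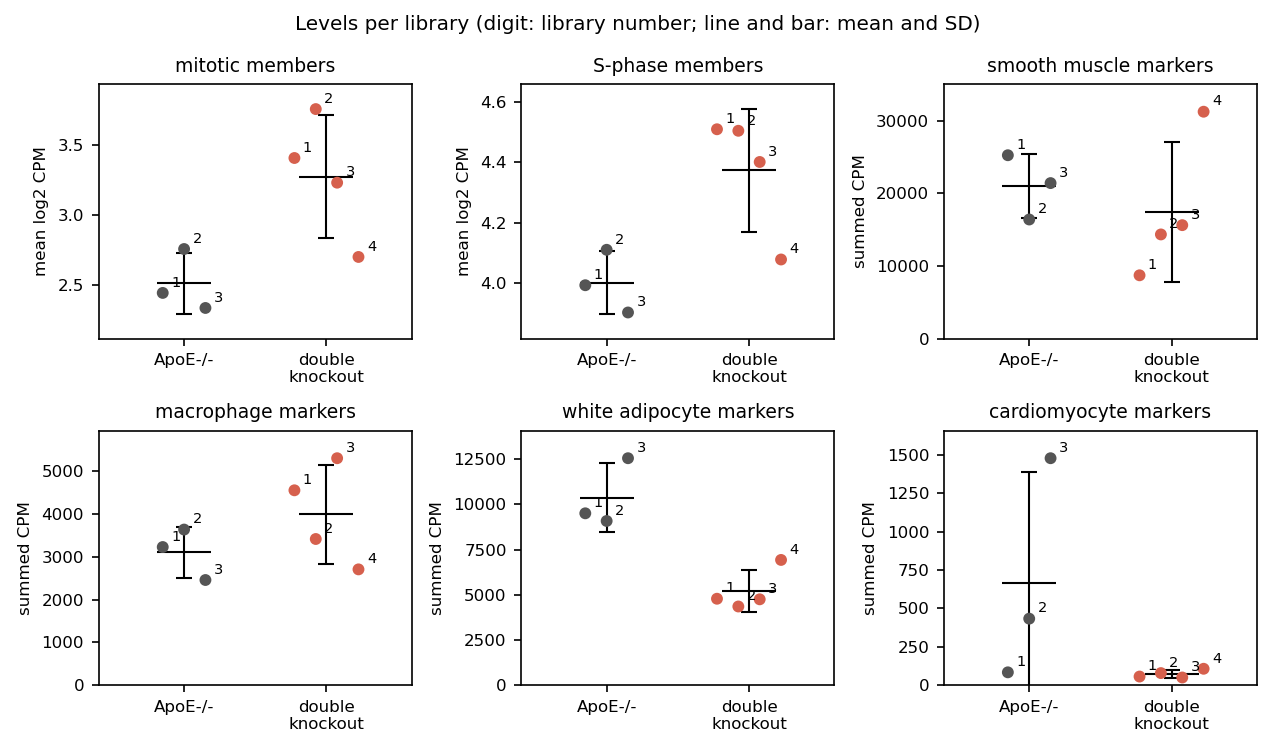
Mean log2 CPM of the 19 mitotic and 12 S-phase members and summed CPM of 4 lists of 10 marker genes in each library (points with the library number; horizontal line and bar are the group mean and SD; for cardiomyocyte markers the lower end of the ApoE-/- bar is cut at 0). DKO 4 is the double knockout library nearest to the ApoE-/- libraries in both cell cycle panels and the highest in smooth muscle markers, at 31270 CPM.

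Other genes of the same pathways were taken from lists by function, none of whose genes passed the edgeR test. Of 60 other mitotic genes, 58 had a log2 fold change above 0 (median 0.62, with 47.4% of all genes above 0). An unadjusted p under 0.05 in that direction was found for 31 (8% of all genes) and no overlap between groups for 16 (7.08% of all genes). The smallest p belonged to Tacc3, a spindle microtubule protein (9.87, 8.83 and 8.45 CPM against 12.5, 14.7, 12.2 and 11.6 CPM, log2 fold change 0.49, edgeR adjusted p = 0.158), and to Spc25, a kinetochore subunit (0.96, edgeR adjusted p = 0.161). The 2 below 0 were Pttg1, securin, which keeps sister chromatids together (-0.31, edgeR adjusted p = 0.386), and the phosphatase Cdc25b (-0.05, edgeR adjusted p = 0.887). Pttg1 was read at 31.7, 24.6 and 34.6 CPM against 21.3, 21.6, 22.4 and 32.3 CPM, so DKO 4 lay with the ApoE-/- libraries here too, on the high side.

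Of 54 other S-phase genes, 46 were above 0 (median 0.32, with 47.4% of all genes above 0) and 11 had an unadjusted p under 0.05 (8% of all genes). The groups did not overlap for 5 of the 54, a share near the 7.08% of all genes. E2f2, an E2F that activates replication genes, was read at 4.61, 6.62 and 4.96 CPM against 9.77, 10.1, 9.55 and 6.80 CPM. All double knockout libraries lay above all ApoE-/- libraries (log2 fold change 0.74, edgeR adjusted p = 0.161). Below 0 with the smallest p were Pold1, the catalytic subunit of a replicative polymerase (-0.14, edgeR adjusted p = 0.473), and Gmnn, geminin, which blocks the licensing factor Cdt1 (-0.26, edgeR adjusted p = 0.489).

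Upstream of S phase the picture was mixed. Of 25 other G1 regulators, 16 were above 0 (median 0.07, with 47.4% of all genes above 0) and 5 did not overlap, with the double knockout higher (7.08% of all genes). Cdk6, the partner of D-type cyclins, was read at 28.7, 29.4 and 26.4 CPM against 46.3, 35.1, 41.4 and 36.6 CPM (log2 fold change 0.50, edgeR adjusted p = 0.146). Cdkn2b, the p15 inhibitor of that kinase, was at 1.06 (edgeR adjusted p = 0.166), so the kinase and its inhibitor were both higher in value. Lin37 and Lin52, subunits of the complex that represses cell cycle genes at CHR elements in resting cells, were at -0.30 (edgeR adjusted p = 0.400) and -0.24 (edgeR adjusted p = 0.365). Of 20 other p53 targets, 13 were above 0 (median 0.15, against the same 47.4%). The smallest p were those of Tnfrsf10b, a death receptor (14.8, 13.0 and 17.5 CPM against 30.4, 31.4, 27.4 and 26.5 CPM, log2 fold change 0.94, edgeR adjusted p = 0.110), and Eda2r, a receptor of the same family (0.81, edgeR adjusted p = 0.173) in the direction of Cdkn1a. In the opposite direction they were those of Phlda3, an inhibitor of Akt signalling (-0.68, edgeR adjusted p = 0.158), and Bax, which permeabilises mitochondria in apoptosis (-0.17, edgeR adjusted p = 0.314). So 13 of the 20 shared the direction of Cdkn1a and 7 did not.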

How the data were processed

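RNA libraries made with a strand-marking mRNA kit, per the labels' protocols, were processed by the submitters. Their processing notes name the build GRCm38.p6 and the tools HISAT2, HTSeq, Trimmomatic, DESeq and Cufflinks. Versions, roles, annotation and the use of strand in counting were not given in the sources used here. Overlapping and antisense genes are therefore uncertain. The deposited gene counts were whole and unnormalised. FPKM values as deposited, scaled by the authors for length and depth, were used only to compare levels between genes and as alternatives.

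Columns were matched to samples by genotype and number. edgeR's filterByExpr (minimum count 10) left 14609 genes. After TMM scaling, 3 libraries were compared with 4 by the quasi-likelihood test of edgeR, with Benjamini-Hochberg adjustment (threshold 0.05), in R 4.3.3 with edgeR 4.0.16, limma 3.58.1 and DESeq2 1.42.0. The test was checked on simulated counts with changes larger than those of most members. How often it finds smaller changes was not measured. SE is the absolute log2 fold change divided by the root of the F statistic. Mean log2 CPM used a prior count of 2. The members and lists were chosen with earlier results of these data known. Values in full were given for the 4 mitotic and 4 S-phase members with the smallest p, Mki67, Top2a, Ccnb1, Pcna, the G1 cyclins, the CDK inhibitors and Cdc20 (the mitotic member nearest to 0), and of each other list the 2 genes with the smallest p per direction were named, except for 1 that is not reported here. Coordinates and promoters are RefSeq's on GRCm38.p6. Sgo1, Sgo2a and Knl1 were matched by gene ID. Alternatives were 3 other scalings, DESeq2, limma voom, 2 other count filters, a replicate block, limma on log2 FPKM, and leaving out each library.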

Additional observations from a re-analysis of the deposited data

Results flagged for a closer look

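In the 4 double knockout libraries, 36 genes were screened for a library far from the rest (Dixon's ratio against its 95% critical value), and chance flags about 1 in 20 such groups. For 2 of the 36 genes a library stood apart, which is about as many as chance gives. Bub1b, the checkpoint kinase, was read at 6.545 CPM in DKO 4 and at 10.63 to 11.3 CPM in the other 3. Cdkn1a, which encodes p21, was read at 57.93 CPM in DKO 1 and at 63.49 to 64.13 CPM in the other 3.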

How the results depend on the processing

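No mitotic or S-phase member changed direction in the 19 alternatives, and all of those tested stayed above 0. The number of genes called over the whole table was 4, against 1142 with DESeq2 (461 higher and 681 lower), 2369 with limma voom (902 and 1467), 0 with limma on log2(FPKM + 1) without a filter, 0 without ApoE 2 and ApoE 3 together, and 0 to 6 with each library left out. Mitotic members called were 0, against 10 with DESeq2 and 11 with limma voom. S-phase members called were 0, against 1 and 3. The cause was not tested. The median log2 fold change of the mitotic members was 0.73 to 1.02 with each library left out and 0.47 with limma on log2(FPKM + 1) without a filter, a scale that understates low genes. That of the S-phase members was 0.30 to 0.46 over all alternatives. Without DKO 4 the medians were 1.02 and 0.45. Deviations of same-numbered libraries from their group means had mixed correlations (-0.39, 0.70 and 0.00 for numbers 1 to 3). With so few libraries, these values cannot decide whether the numbers pair the libraries. With the replicate block, 0 genes were called and the medians were 1.03 and 0.46.

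Of the 17 members given in full, calls appeared only with DESeq2 and limma voom for Mki67, Birc5, Cenpe, Cenpf, Top2a and Mcm5, only with limma voom for Mcm3 and only with DESeq2 for Cdkn1a. Ccne2, the member with the lowest count in any library, had as few as 23 counts, which limits the precision of its values.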
